A study of Mus musculus with 6 samples.

Results

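Transcripts of the actin cytoskeleton machinery were examined in double-negative thymocytes, the T cell precursors with neither CD4 nor CD8 on their surface. The members are 60 genes listed by function: the cytoplasmic actins and the proteins that bind, nucleate, extend, cap, sever, bundle and anchor actin filaments. Every probe set that the platform's annotation ties to exactly 1 of these genes was taken, which gave 76 probe sets of 54 genes, out of 8251 genes named in this way on the array. No probe set of its own was found for 6 of them (Twf1, Pak1, Actr2, Arpc1b, Arpc3 and Wasl). Total RNA had been hybridised to 6 single-colour Affymetrix mouse arrays. Of these, 3 were from RAG1-deficient mice, whose thymocytes cannot assemble antigen receptor genes and stop at the double-negative stage, and 3 from RAG1/Ezh2 double mutant mice. RAG1 deficiency is thus shared by both groups, and the contrast is the added mutation of Ezh2, the methyltransferase of Polycomb repressive complex 2. The labels used here give no strain, age, sex, Cre driver or deleted exon, and do not say whether the arrays of a group came from separate animals, so the p-values measure spread among these 6 arrays, of which some or all could be technical.

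Actin filaments grow from monomers that profilin and thymosins hold ready, branch through the Arp2/3 complex, lengthen with formins and Ena/VASP proteins, and are severed by cofilin and destrin. In T cells this turnover shapes the contact with other cells, migration and signalling from the antigen receptor. Ezh2 is best known for placing the repressive mark H3K27me3 on chromatin, and a pool of it in the cytosol has been tied to actin polymerization after receptor stimulation. The comparison asks whether the transcripts of this machinery differed between the groups.

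The titles come in 3 styles (numbered, Rag and Thy), with 1 array of each group in each style, and arrays of one style deviated from their group means together (correlation across probe sets 0.57, 0.736 and 0.602). Values of a probe set are therefore given in the order numbered, Rag, Thy, the groups were compared without and with title style as a block (the unpaired and the paired fit), and the 3 differences within a style are called pairs. Ezh2 itself was at 1435, 1641 and 1789.5 in the RAG1-deficient and at 291.5, 651 and 724 in the double mutant arrays (paired limma adjusted p = 0.0261, unpaired 0.332). One library stood apart from its label as double-negative: RAG1-deficient replicate 1, the numbered array, read 2973 for Cd8a, against at most 81.3 on the other 5 arrays. The same array read 8426 for Cd8b1, against at most 164.4 on the others, and 699 for Cd4, against at most 273. Markers of other cells moved with title style, with group or with both. Summed intensities of the antigen-presenting list were 28313, 21257 and 4488 in the RAG1-deficient and 19342, 9259 and 4337 in the double mutant arrays, lowest on the Thy arrays of both groups and, within every style, lower on the double mutant array, with 7 of 7 probe sets below 0 (median log2 difference -0.41). NK marker sums separated the groups without overlap, with most of the signal from 1 gene, Gzma. No probe set's level can be set against another's, and in bulk RNA fewer cells of a type and less RNA per cell cannot be told apart.

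Among the actin regulators Enah and Dstn rose in the double mutant in the paired fit, while the 63 other tested probe sets of the family did not pass in either fit. Enah, also called Mena, is an Ena/VASP protein that speeds filament growth at barbed ends, and Dstn encodes destrin, a relative of cofilin that severs filaments and frees monomers. Probe sets were tested if they exceeded an intensity of 86.5 on at least 3 of the 6 arrays, which kept 65 member probe sets of 49 genes. In the unpaired limma fit 0 member probe sets passed in either direction at an adjusted p under 0.05 (3 and 0 with an unadjusted p under 0.05). Of all 7642 tested probe sets that fit called 0.0393% higher and 0.0% lower. In the paired fit 2 member probe sets passed as higher and 0 as lower, against a background of 0.563% higher and 0.105% lower. The 2 calls are 3.08% of the member probe sets tested. One of them, Enah, entered the test only through the group where it is high, so this share is no support for a difference from the background. With p below 0.05 before adjustment, the paired fit had 7 member probe sets higher (10.8%, against 7.73% of all tested probe sets) and 10 lower (15.4%, against 5.4%). None of the lower ones passed after adjustment. Some genes count more than once in these shares: Evl among the higher, and Actn1, Limk1 and Myh9 among the lower. Log2 differences, here double mutant minus RAG1-deficient on the scale log2(intensity + 23), had a median of 0.02 over the tested members and of -0.002 over all tested probe sets. Unless a paired SE is named, the SE given with such a difference is that of the unpaired fit, also beside a paired p. Without the filter the median was 0.005 over all 76 member probe sets and -0.02 over all probe sets. Of the 65, 35 lay above 0 and 30 below, and 54 were within 0.5 of 0.

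**Figure D1:**
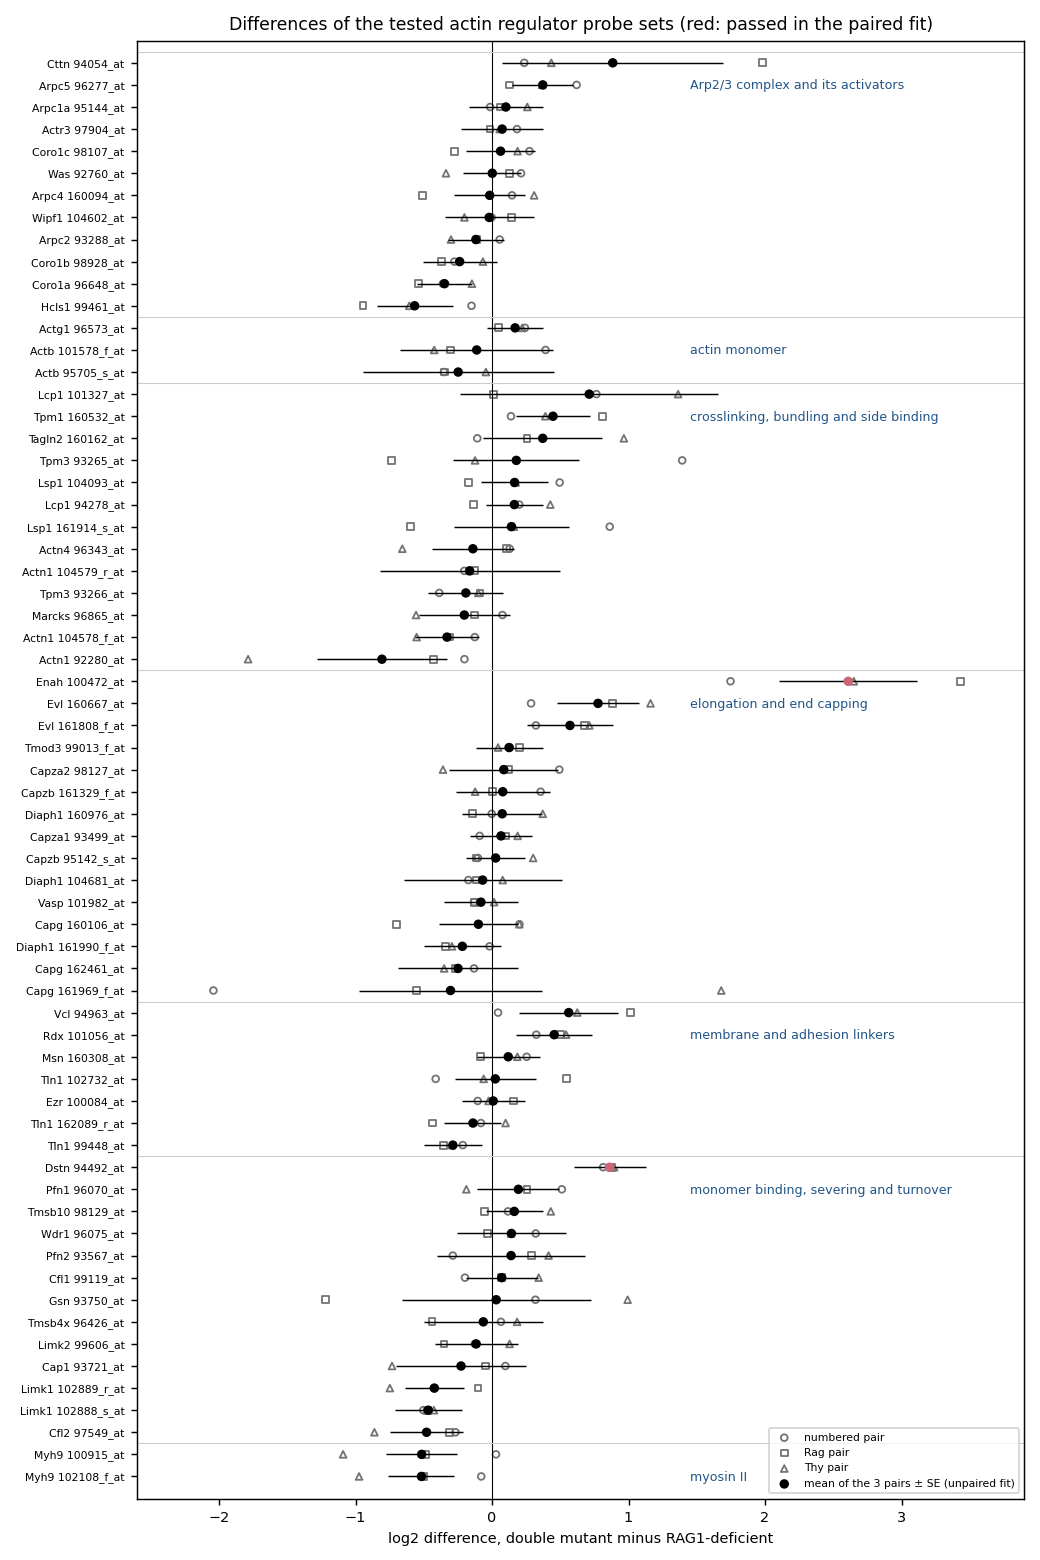
Log2 difference of each of the 65 tested probe sets (double mutant minus RAG1-deficient), grouped by role, with the standard error of the unpaired fit; open symbols are the 3 pairs, and red marks the probe sets that passed in the paired fit. Most points sit near 0, and Enah at 2.61 and Dstn at 0.86 are the 2 marked in red.

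Enah (probe set 100472_at) read 97.9, 6.6 and 38.6 in the RAG1-deficient arrays and 383, 296 and 364 in the double mutant arrays. The groups did not overlap, and within the RAG1-deficient group the Rag array was the dimmest and the numbered array the brightest. Group means were 47.7 ± 46.3 and 347.5 ± 45.4 (SD, n = 3 each), and the log2 difference was 2.61 ± 0.51 (SE). It passed in the paired limma fit (adjusted p = 0.0261) and not in the unpaired fit (adjusted p = 0.278). The difference was 1.75, 3.43 and 2.65 in the numbered, Rag and Thy pair. Enah was the only one of the 65 that exceeded the filter on all 3 double mutant arrays and on at most 1 RAG1-deficient array, so it was tested through the group where it is high. Its other probe sets were dim and not tested. One read 93.1, 28.3 and 12.5 against 74.8, 74.9 and 152, with overlap, and the other stayed between 1.0 and 5.4 on every array, so the rise rests on 1 of 3 probe sets.

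Dstn read 1755, 1548 and 1092 in the RAG1-deficient and 3103, 2863 and 2048 in the double mutant arrays. Within each group the Thy array was the lowest, and still the lowest double mutant value exceeded the highest RAG1-deficient one. Means of 1465 ± 339 and 2671 ± 553 (SD, n = 3 each) gave a log2 difference of 0.86 ± 0.26 (SE of the unpaired fit, with a paired SE of 0.11). The pairs were nearly equal, at 0.81, 0.88 and 0.89. In the paired limma fit Dstn passed (adjusted p = 0.0261), and in the unpaired fit it did not (adjusted p = 0.943).

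Both paired calls ended when the numbered or the Thy pair was left out, although the differences stayed: without the numbered pair, which holds the array with CD8 signal, Enah was at 3.04 (paired adjusted p = 0.0796) and Dstn at 0.89 (0.167), and without the Thy pair at 2.59 (0.129) and 0.85 (0.111). They also ended without the filter (paired limma adjusted p = 0.0795 for Enah and 0.064 for Dstn) and without the variance trend (0.0912 and 0.125), that of Enah with a pseudocount of 1 (0.0748) and that of Dstn with quantile normalization (0.0513). Without the Rag pair both passed, and the Actn1 probe set 92280_at passed as lower (-0.99, paired limma adjusted p = 0.0155). That fit called 127 of all 7642 tested probe sets higher and 64 lower, against 43 and 8 with all pairs. With the numbered RAG1-deficient array alone left out, the unpaired fit called 0 members, and Enah and Dstn had log2 differences of 3.11 and 1.004.

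Markers of stromal and epithelial cells were read on the same arrays and are given beside these values. Summed over the 20 probe sets of 14 smooth muscle and fibroblast markers, intensities were 1766 to 2352 in the RAG1-deficient and 1844 to 2254 in the double mutant arrays. Of these probe sets 12 stayed under the filter on every array, the smooth muscle markers Acta2, Des, Cnn1 and Myh11 among them. In that list Pdgfrb alone rose in the paired limma fit, from 135, 210.3 and 202 to 419.9, 536.5 and 405 (adjusted p = 0.0436). Over 8 probe sets of 7 thymic epithelial markers the sums were 921 to 3264 and 1014 to 2953. For 7 probe sets of 6 NK markers they were 2449.6 to 3947 and 7235 to 9572, without overlap, with most of the signal from Gzma. Both granzymes of this list rose in the paired limma fit, Gzma by a log2 difference of 1.79 (adjusted p = 0.00356) and Gzmb by 1.31 (0.0261), which makes 2 of its 4 tested probe sets. The others tested, Klrd1 (-0.32) and Ncr1 (0.45), overlapped between the groups and did not pass. The probe sets of Fcer1g and Prf1 were not tested. The sums were 2362 to 3016 and 1936 to 2439 for B lineage, 4215 to 15088 and 4448 to 10526.5 for myeloid, and 828 to 31109 and 1395 to 30937.5 for erythroid and platelet markers (7, 12 and 6 genes on the array). Most of the erythroid and platelet signal on the numbered and Rag arrays came from Hba-a1. Over 13 thymocyte markers, which define the labelled cell type, the sums in the order numbered, Rag, Thy were 68379.7, 101021 and 88857 in the RAG1-deficient and 63893, 86285.5 and 61162 in the double mutant arrays, lower in all 3 pairs. Of the 15 tested thymocyte probe sets 14 lay below 0, with a median log2 difference of -0.29, and 0 passed in either limma fit (2 lower unpaired and 5 lower paired at an unadjusted p under 0.05). For CD4 and CD8 the sums were 232 to 12098 and 79.1 to 429.6. No marker probe set was listed at 0 on any array. The part of other cells in the differences of Enah and Dstn was not tested.

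The promoters of the 2 genes that rose are shown because they are the start regions of the only members called, and because Polycomb repressive complex 2 is known to occupy many CpG-rich promoters. Each runs from 250 bases before to 50 bases after the annotated start in the RefSeq annotation of mouse GRCm38.p6, 5′ to 3′ on the gene's strand, with every CpG in capitals. Enah lies at chr1:182019931-182020230, minus strand, and Dstn at chr2:143915081-143915380, plus strand.
Enah: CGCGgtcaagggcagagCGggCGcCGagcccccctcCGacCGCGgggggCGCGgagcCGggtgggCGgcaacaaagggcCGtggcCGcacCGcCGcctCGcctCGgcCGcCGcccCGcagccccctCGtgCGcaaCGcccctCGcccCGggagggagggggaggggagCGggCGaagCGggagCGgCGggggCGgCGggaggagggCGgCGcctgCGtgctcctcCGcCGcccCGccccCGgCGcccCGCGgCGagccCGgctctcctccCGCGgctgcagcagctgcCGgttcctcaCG
Dstn: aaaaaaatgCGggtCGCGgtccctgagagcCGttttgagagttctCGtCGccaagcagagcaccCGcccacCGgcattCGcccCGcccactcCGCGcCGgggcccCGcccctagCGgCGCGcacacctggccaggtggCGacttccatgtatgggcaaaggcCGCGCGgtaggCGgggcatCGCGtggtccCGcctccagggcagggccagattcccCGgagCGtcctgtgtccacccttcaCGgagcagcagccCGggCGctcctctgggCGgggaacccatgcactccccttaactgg

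The Enah promoter holds 49 CpG dinucleotides in 300 bases, a count that 1.02% of 32851 promoters of this length reach. Dstn holds 31, which 10.6% reach. A promoter was found for 52 of the 60 listed genes (69 promoters, as some genes have several starts), and Actb, Cttn, Coro1b, Diaph1, Tmod3, Lsp1, Marcks and Tagln are not among them. The median was 20 CpG over the members' promoters and 7 over all, and 2 of the 69 held at least as many as Enah and 20 at least as many as Dstn. Occupancy by Polycomb repressive complex 2 was not measured on these arrays. A link between CpG count and the differences of Enah and Dstn was not tested.

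The CArG box, bound by serum response factor (SRF), is a known control element of many actin genes. The pattern searched was CC, a run of only A and T, and GG, 10 bases in all. As a pattern it reads the same on both strands, though a single box need not. It was found in 5 of the members' 69 promoters (7.25%) and in 1.63% of all promoters. The boxes are shown in capitals with up to 10 flanking bases on each side, from the same build and on the gene's strand. They are shown because the box is a known control element of many actin genes.
Actg1 (chr11:120348566-120348595, minus strand): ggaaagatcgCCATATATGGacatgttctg
Vcl (chr14:20929161-20929190, plus strand): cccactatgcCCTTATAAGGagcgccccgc
Arpc4 (chr6:113377863-113377882, plus strand): CCTAATTTGGtgcccaacct
Myl6 (chr10:128493040-128493069, minus strand): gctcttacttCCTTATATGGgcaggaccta
Myl9 (chr2:156775293-156775322, plus strand): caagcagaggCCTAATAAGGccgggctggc

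The first bases of the boxes lie 90 (Actg1), 227 (Vcl), 50 (Myl6) and 161 (Myl9) bases before the start, and that of Arpc4 is the first base of its window. Actg1, the tested probe set of Vcl (a linker of adhesions to actin) and Arpc4 had log2 differences of 0.17, 0.56 and -0.02 and did not pass. Myl6 and Myl9 lay under the filter. The windows of Enah and Dstn hold no exact match to the CArG pattern. Near matches were not searched for. In a list of SRF-related genes 3 genes were tested, and Srf itself was not among them. In either limma fit 0 of them passed (0 at an unadjusted p under 0.05). Fhl2 had a log2 difference of 0.43 ± 0.25 (SE) without overlap, Mrtfa 0.05 and the tested probe set of Egr1 0.14.

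The cytoplasmic actins themselves did not pass. Actg1, gamma-actin, read 10344, 11722 and 12121 in the RAG1-deficient and 12229, 12093 and 14133 in the double mutant arrays, where only the brightest RAG1-deficient array overlapped the double mutant arrays. Its log2 difference was 0.17 ± 0.21 (SE). Actb, beta-actin, differed between title styles. Its probe set 95705_s_at read 1078, 4652 and 4149 in the RAG1-deficient and 839, 3652 and 4022 in the double mutant arrays. Probe set 101578_f_at read 1477, 6409 and 5113 against 1945, 5183 and 3805.5. Both were lowest on the 2 numbered arrays, and their log2 differences of -0.25 ± 0.70 (SE) and -0.11 ± 0.56 (SE) turned positive when the numbered double mutant array was left out (0.47 and 0.28).

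The array also carries control probe sets for the 3′ part, middle and 5′ part of the beta-actin transcript, and these ranked the arrays differently. The 3′ control read 38661, 4448 and 26336 in the RAG1-deficient and 35475, 5826 and 23267 in the double mutant arrays. It was thus lowest on the Rag arrays, where the gene probe sets were bright, and highest on the numbered arrays, where they were dim. The middle control (23965, 1723.5 and 19294 against 22366, 2279.7 and 16356) and the 5′ control (20209, 1972 and 18846.5 against 17841, 2105 and 18769) were likewise lowest on the Rag arrays. The ratio of 3′ to 5′ control signal, a measure of RNA integrity, was 1.91, 2.26 and 1.40 against 1.99, 2.77 and 1.24 (exact two-sided permutation p = 0.9, where 0.1 is the smallest that 3 against 3 allows). For Gapdh that ratio was 1.04, 1.35 and 0.889 against 0.928, 1.14 and 0.836 (exact permutation p = 0.6). The level of Actb across styles therefore depends on the probe set read, and the part of the title style in it was not tested.

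**Figure D2:**
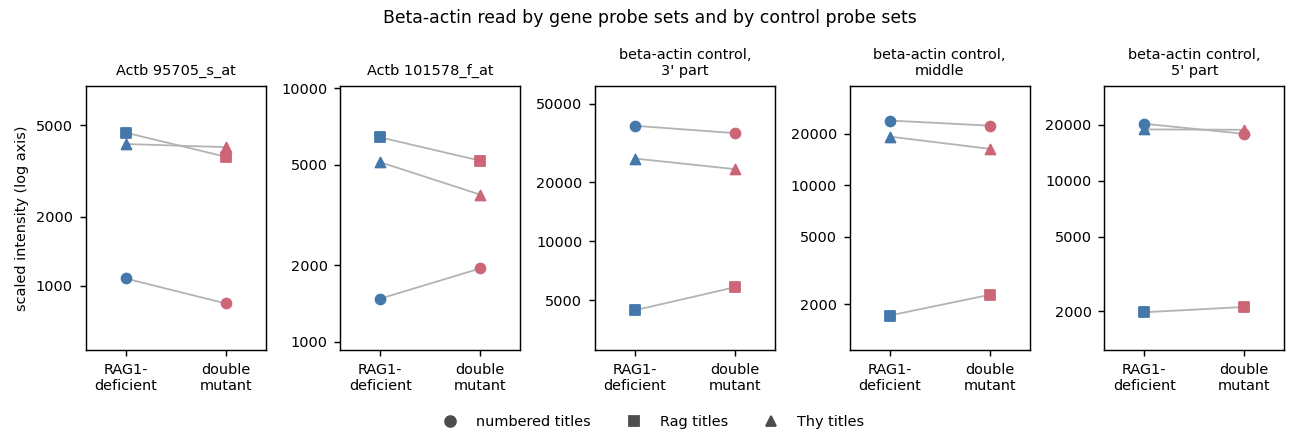
Scaled intensity of beta-actin on the 6 arrays (log axis), for the 2 gene probe sets and the 3 control probe sets, with lines joining the 2 arrays of a title style. The gene probe sets are lowest on the numbered arrays (839 to 1945), and the 3′ control is lowest on the Rag arrays (4448 and 5826).

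Proteins that hold monomers or turn filaments over had 13 tested probe sets of 12 genes, 7 above and 6 below 0. Dstn, given above, was the only one to pass. Neither of its closest relatives passed. Cfl1, the main cofilin of leukocytes, read 7829, 5124 and 6854 against 6821, 5379 and 8692 (log2 difference 0.07 ± 0.26 SE), with overlap of the groups. Cfl2, the muscle cofilin, read 283, 229 and 371 against 231, 180.0 and 194, lower in all 3 pairs, with a log2 difference of -0.48 ± 0.27 (SE). Whether Dstn differed from them in its response was not tested.

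Limk1, the kinase that inactivates cofilin, was lower without overlap on both of its probe sets but did not pass. One (102888_s_at) read 318, 376.5 and 428 against 218, 265 and 313, and the other (102889_r_at) 1127.5, 903 and 1215 against 838, 839 and 714. This gave log2 differences of -0.47 ± 0.25 (SE) for the first and -0.42 ± 0.22 (SE) for the second, with paired limma adjusted p of 0.283 and 0.321. Limk2, a second cofilin kinase, had -0.12 ± 0.30 (SE).

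Monomer-binding proteins showed no called difference. Pfn1, a profilin, read 196, 201.5 and 369.8 against 289, 245 and 322 (log2 difference 0.19 ± 0.30 SE). Tmsb4x, the thymosin that sequesters most monomers in many cells, read 6327, 19004 and 8325 against 6620.5, 13997 and 9458. It was highest on the 2 Rag arrays, and its log2 difference of -0.06 ± 0.43 (SE) was 0.40 without the Rag RAG1-deficient array. The remaining 6 tested probe sets of this role lay between -0.23 and 0.16. Tmsb4x, Was, Msn and Flna are X-linked. Xist, the X-inactivation RNA of female cells, read 5414, 794 and 9482 against 4186, 1458 and 2423, and no Y-linked probe set exceeded 54.1.

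The Arp2/3 complex nucleates branches, and with its activators had 12 tested probe sets, 6 above and 6 below 0, of which 0 passed in either fit. Arpc5, a subunit of the complex, read 313, 391 and 407 in the RAG1-deficient and 494, 429 and 531 in the double mutant arrays, higher without overlap, at a log2 difference of 0.37 ± 0.22 (SE). The other subunits tested, Actr3, Arpc1a, Arpc2 and Arpc4, lay between -0.12 and 0.10.

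Coro1a, a coronin of leukocytes that acts on Arp2/3-made networks, was lower without overlap. It read 5247, 6111 and 4709.6 against 4083.5, 4201 and 4250.6, and the spread between arrays was 707 against 85.8 (SD, n = 3 each). Its log2 difference of -0.35 ± 0.20 (SE) did not pass (paired limma adjusted p = 0.278). Hcls1, the leukocyte relative of cortactin, read 1079.7, 1689 and 1949.6 against 971, 866 and 1273. It was lower in all 3 pairs with overlap, at -0.57 ± 0.28 (SE) and a paired limma adjusted p of 0.223. Was, the Wiskott-Aldrich protein that switches the complex on in blood cells, had a difference of 0.002 ± 0.21 (SE), and its partner Wipf1 one of -0.02 ± 0.33 (SE). The 9 tested probe sets of this role other than Arpc5, Coro1a and Hcls1 lay between -0.24 and 0.88. The highest was Cttn, at 301, 41.6 and 31.1 against 358, 232 and 50.1, with overlap.

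**Figure D3:**
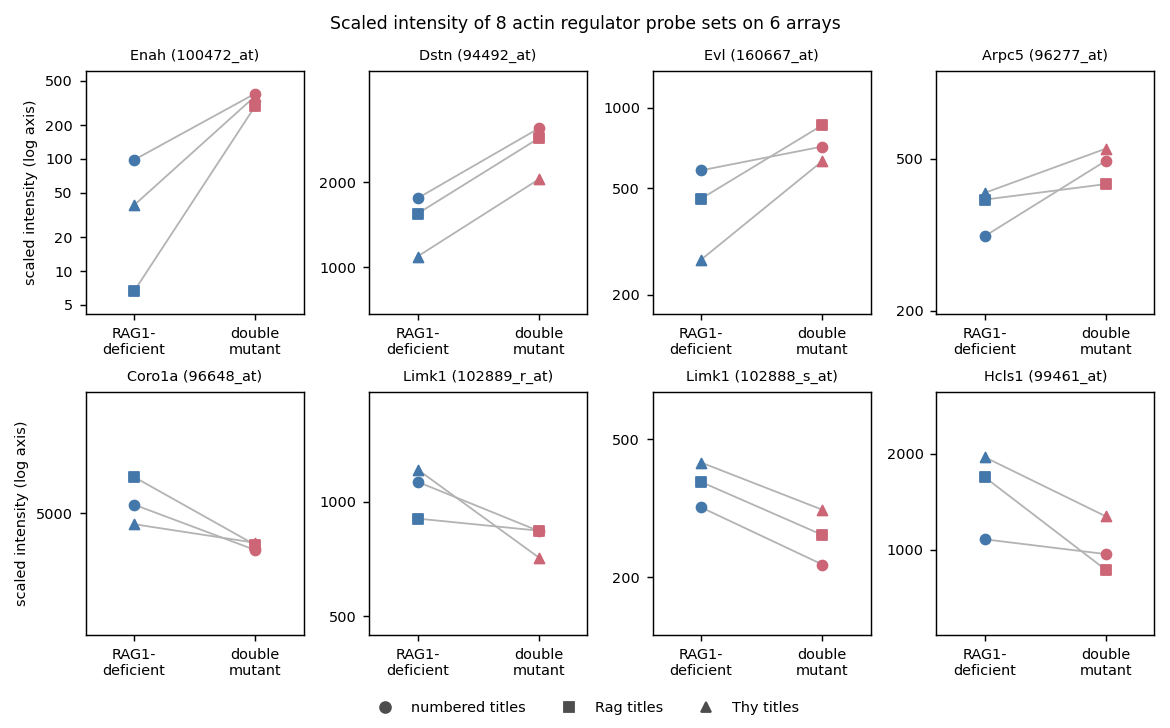
Scaled intensity (log axis) of 8 probe sets on the 6 arrays, with lines joining the 2 arrays of a title style. All 3 lines rise for Enah, Dstn, Evl and Arpc5 and fall for Limk1, Coro1a and Hcls1, with overlap of the groups only for Hcls1.

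Proteins that lengthen or cap filament ends had 15 tested probe sets of 9 genes, 9 above and 6 below 0. Enah passed in the paired fit, as given above. Evl, the Ena/VASP protein typical of blood cells, was higher in all 3 pairs on both of its probe sets and did not pass. One (160667_at) read 584, 457 and 270.3 against 717, 862.5 and 633, without overlap, with a log2 difference of 0.78 ± 0.30 (SE) and a paired limma adjusted p of 0.164. The other (161808_f_at) read 343, 203 and 163 against 434, 339 and 281.5, with overlap, at 0.57 ± 0.32 (SE). Vasp, the third member of that family, had a log2 difference of -0.08 ± 0.27 (SE), so the 3 relatives had values of 2.61, 0.78 and -0.08 on their brightest tested probe sets. A difference between them was not tested. The 12 other probe sets, from capping proteins (Capza1, Capza2, Capzb, Capg, Tmod3), the formin Diaph1 and Vasp, lay between -0.30 and 0.12.

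Crosslinking, bundling and side-binding proteins had 13 tested probe sets, 7 above and 6 below 0, and 0 passed in either fit. Actn1, an alpha-actinin, was below 0 on its 3 probe sets. The one with the smallest p (92280_at) read 428, 209 and 779.5 against 369, 149 and 209.6, at -0.81 ± 0.48 (SE), where the Thy pair differed by -1.79 and the numbered pair by -0.20. The brighter probe sets were at -0.33 ± 0.23 (SE) and -0.16 ± 0.66 (SE). Tpm1, a tropomyosin that stabilises filaments, read 386, 349.6 and 271 against 428, 630.4 and 363 (0.45 ± 0.27 SE), higher in all 3 pairs with overlap. The bundling protein Lcp1, or L-plastin, gave 0.16 ± 0.21 (SE) on its bright probe set. Its dimmer one (101327_at) gave 0.71 ± 0.94 (SE), higher in all 3 pairs with overlap, and did not pass. The 11 tested probe sets of this role other than Actn1 92280_at and Tpm1 lay between -0.33 and 0.71. The smooth muscle marker Tagln and the crosslinker Flna were under the filter, and Flna did not exceed 29.6 on any array.

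Myosin II was read through its heavy chain Myh9 alone, since the light chains Myl6 and Myl9 were under the filter. One probe set (100915_at) read 3542, 3386 and 4346 against 3614, 2414 and 2028, and the other (102108_f_at) 2538.5, 3658 and 3763 against 2402, 2584 and 1904.5. The 2 probe sets had the same log2 difference of -0.52 ± 0.26 (SE) and -0.52 ± 0.24 (SE). In both the Thy pair differed most, at -1.09 and -0.97, and the numbered pair hardly, at 0.03 and -0.08. Neither passed, with paired limma adjusted p of 0.338 and 0.272.

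Linkers between filaments and the membrane or adhesions had 7 tested probe sets, 5 above and 2 below 0, with 0 passing in either fit. Rdx, or radixin, read 1191.5, 995 and 1598.5 against 1498, 1417 and 2339. It was higher by similar amounts in the 3 pairs (0.32, 0.50 and 0.54), with overlap, because the Thy arrays were the highest of both groups. Its log2 difference was 0.46 ± 0.28 (SE of the unpaired fit), with a paired SE of 0.12 and a paired limma adjusted p of 0.182. Its relatives Ezr (ezrin) and Msn (moesin) had 0.01 ± 0.23 (SE) and 0.12 ± 0.23 (SE).

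Title style and group were also set side by side as a description. The highest minus the lowest style mean had a median of 0.63 on the log2 scale over the 65 tested member probe sets, against a median size of 0.17 for the group difference. It exceeded the group difference in 54 of 65 (83.1%), compared with 88.4% of all tested probe sets. The range of 3 means of 2 arrays tends to exceed the difference of 2 means of 3 arrays even where neither style nor group has an effect, so the sizes do not rank style against group. Lcp1 (101327_at), Cttn (94054_at), Actn1 (104579_r_at) and Actb (95705_s_at) spanned the most, at 2.88, 2.48, 2.17 and 2.09. The direction within pairs was mixed: 12 member probe sets were higher in all 3 pairs (18.5%, against 18.8% of all tested) and 15 lower (23.1%, against 17.1%), which leaves 38 with pairs on both sides of 0. Groups without overlap were found for 4 member probe sets on the higher side (6.15%, against 4.21% of all tested), namely Enah, Dstn, Evl and Arpc5. On the lower side there were 3 (4.62%, against 2.92%), from Coro1a and from both probe sets of Limk1. These shares stood near those over all tested probe sets. Of 12 genes with several tested probe sets, 9 had all of them on 1 side of 0, and in the other 3 the gap was at most 0.37.

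**Figure D4:**
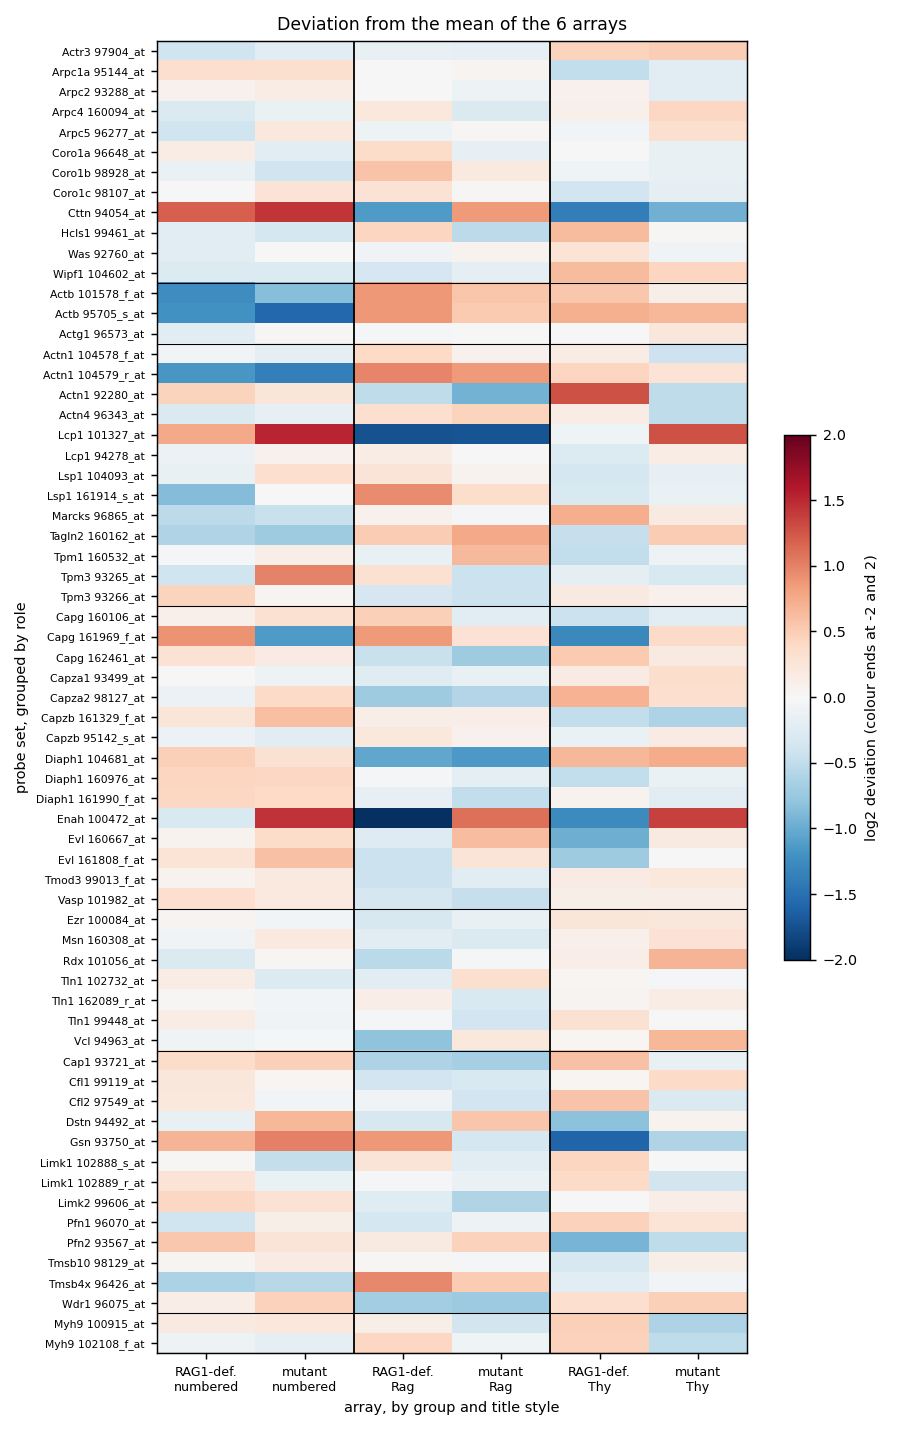
Log2 deviation of each tested probe set from its mean over the 6 arrays (rows, grouped by role; columns, arrays by title style and group). Within a style the 2 columns often share a colour, as for both rows of Actb, whereas Enah and Dstn are redder in the double mutant column of every style.

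Genes that steer this machinery were looked at beside it. In the list of the WAVE complex and scaffolds 11 of 18 genes were tested (14 probe sets, 5 above and 9 below 0), and 0 passed in either limma fit, with 0 at an unadjusted p under 0.05 unpaired and, paired, 1 higher and 2 lower. Skap2, an adaptor of blood cells, had 0.62 ± 0.30 (SE), Iqgap1 between -0.47 and -0.25 over 3 probe sets, and Abi1 -0.42 ± 0.38 (SE). The list's median log2 difference was -0.19, against -0.002 over all tested probe sets.

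Among the members without a tested probe set were Nck1, an adaptor between receptors and actin, Tagln, Flna, Myl6 and Myl9. Of their 5 probe sets Nck1 read 55.1, 7.0 and 79.0 against 33.2, 8.9 and 49.1, and Tagln 139.6, 24.6 and 86.8 against 42.4, 36.2 and 27.7. All 5 overlapped between the groups.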

How the data were processed

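The deposited table holds 1 linear intensity per probe set and array, which the authors had scaled to a common trimmed mean, as read from the values, with software not given in the sources used here. Gene names came from the platform's table, through Entrez numbers to a RefSeq table of GRCm38.p6. The 66 control probe sets stayed out, and 18 of the 76 member probe sets carry suffixes of probe sets that can detect related transcripts. The tests ran on log2(intensity + 23), with the pseudocount set near the 20th percentile of the table, and on probe sets above 86.5 (the 40th percentile) on at least 3 arrays. Adding 23 understates the change of dim probe sets. limma 3.58.1 in R 4.3.3 (lmFit, eBayes with a trend, two-sided) fitted all 7642 probe sets, with Benjamini-Hochberg adjustment and a threshold of 0.05. The unpaired fit was tried on simulated data without a title style effect, with changes larger than that of Dstn. The paired fit was not tried in this way. Values on every array are given for Actb, Actg1, Cfl1, Pfn1 and Tmsb4x, for the 15 tested member probe sets of smallest unpaired p and the 8 of smallest paired p, and for genes whose probe sets differ in sign by over 0.5 (none did). Vcl, Cttn, Nck1 and Tagln were named after their values were seen. The members and lists were chosen with earlier results of these data known, and 1 list is not reported here. The pairing comes from the titles and from correlations of 0.57 to 0.736 between arrays of a style; no label states a shared litter or day. Alternatives were another pseudocount, filter, scaling and variance prior, title style as a block, and leaving out arrays or pairs. The number of arrays limits the precision. Plots used matplotlib 3.10.9 (Python 3.11.15).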

Additional observations from a re-analysis of the deposited data

How the results depend on the processing

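With title style as a replicate block, 2 member probe sets passed as higher (Enah and Dstn) in place of 0. Over all tested probe sets the count went from 3 to 43 higher and from 0 to 8 lower. The block combined with other settings, chosen after seeing the data, gave 2 with the pseudocount at the 40th percentile and with median centring. It gave 1 with a pseudocount of 1 (Dstn, adjusted p = 0.0394), with quantile normalization (Enah, 0.0387) and with a mean filter at the 60th percentile (Dstn, 0.0253; Enah was left out by that filter). It gave 0 without a filter (Enah 0.0795, Dstn 0.064) and without the trend (0.0912 and 0.125). Over all tested probe sets the block called 46 higher and 10 lower with the 40th percentile pseudocount, and 24 and 6 with a pseudocount of 1. With the block and 1 pair left out, the member count ranged from 0 to 2 higher and from 0 to 1 lower. The count over all tested probe sets then ranged from 3 to 127 higher and from 0 to 64 lower. In the unpaired fits 0 members passed under every alternative run. The count without overlap on the lower side was 6 with quantile normalization and 5 with median centring. With 1 array left out it ranged from 4 to 8 on the lower and from 5 to 10 on the higher side, since 2 arrays against 3 overlap less. Probe sets without overlap were not counted over the whole array in these settings, so the member counts have no background here. The median log2 difference of the members stayed between -0.055 and 0.071 with 1 array left out, and between -0.056 and 0.067 with 1 pair left out. Signs turned for small differences when arrays were left out. In the unpaired fit the range was -0.758 to 0.292 for Actb 101578_f_at, -0.916 to 0.472 for Actb 95705_s_at, -0.394 to 0.398 for Tmsb4x and -0.102 to 0.243 for Cfl1. With the block it was -0.365 to 0.043 for Actb 101578_f_at, -0.188 to 0.124 for Tmsb4x and -0.064 to 0.206 for Cfl1. The cause of these changes was not tested, but an array left out of the unpaired fit leaves its title style in 1 group only.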

Other observations

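Probe sets that the annotation ties to a member and to a second gene were kept out of the comparison. One shared by Arpc1b, an Arp2/3 subunit of blood cells, and Gm5637 read 1824, 1394 and 1388 in the RAG1-deficient and 1834, 1188 and 1280.5 in the double mutant arrays, in the order numbered, Rag, Thy. A second of the same pair did not exceed 105 on any array, and one shared by Twf1, a monomer-binding protein, and Gm4887 did not exceed 68.7. All of them overlapped between the groups.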
